A study of Arabidopsis thaliana with 3 samples.

Results

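A set of 221 clones was taken from a comparison of agamous with wild-type inflorescences of Arabidopsis thaliana. These are the features with a mean log2 ratio at or above 1 over the 3 arrays of the study and a value above 0 on each array. They make up 2.36% of the 9368 features, each spotted from a clone whose name gives a plate and a well. The arrays were cDNA arrays with 2 channels, and per the labels channel 1 held total RNA of wild-type inflorescences and channel 2 total RNA of agamous inflorescences. The arrays belong to 1 group and are numbered as replicates 1, 2 and 3. The labels give no ecotype, no agamous allele and no stage of the flowers. Separate plants for each array are not mentioned either. A p-value here therefore sets a mean only against the spread between arrays, moderated over all features, and that spread may be technical.

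AGAMOUS encodes a MADS-box transcription factor that gives stamens and carpels their identity and stops stem cell activity in the centre of the flower. Strong agamous mutants make petals where stamens would form, and a further flower of sepals and petals starts where the carpels would stand, so that these whorls repeat. Such an inflorescence is rich in sepals and petals and has no pollen, anthers or ovules. In RNA of whole inflorescences, a transcript with more cells to express it and one with more RNA per cell cannot be told apart.

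The labels do not state which channel is the numerator of the deposited ratio. If it is agamous over wild type, the 221 clones had more signal with the mutant RNA. If it is wild type over agamous, they had less. Values are given with the signs as deposited, as the positive side. None of the features (0 of 9368) matched a symbol, locus tag, synonym or accession of the RefSeq gene table (assembly TAIR10.1). No clone is therefore given a gene or a place in the genome, AGAMOUS itself and the other floral organ identity genes were not analysed here, and the tissue could not be checked by its markers.

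The ratios that chose the clones were moderate and closely packed. The means of the 221 clones ran from 1.001 to 1.99, with a median of 1.19 (a 2.28-fold difference between the channels) and quartiles of 1.07 and 1.39. A mean between 1 and 1.2 was found for 114 clones (51.6%). A further 54 lay between 1.2 and 1.4, 37 between 1.4 and 1.6, 11 between 1.6 and 1.8, and 5 above 1.8. No clone with a mean at or above 1 had a value at or below 0 on any array, so the sign rule removed 0 features.

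The limit at 1 falls in the upper tail of the distribution, where the number of features declines steadily. Just inside it lay a clone with 1.17, 0.98 and 0.86 in replicates 1, 2 and 3 and a clone with 1.0002, 1.19 and 0.81, both with a mean of 1.001. Just outside it lay a feature with 1.12, 1.18 and 0.68 (mean 0.996037) and a feature with 1.34, 1.21 and 0.43 (mean 0.995652). Between means of 0.9 and 1 there were 118 features, and between 1 and 1.1 there were 63 of the chosen clones. The limit is thus a line drawn through a continuous series and not a gap. The number of clones also depended on the arrays and their centring. The same rule took 435 features without replicate 3 and 442 after median centring of the arrays, and it took 150 without replicate 1 and 200 without replicate 2.

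The clone with the highest mean was GP002D3 (plate 002, row D, well 3). Its log2 ratios were 2.19, 2.23 and 1.57 in replicates 1, 2 and 3, with a mean of 1.99 ± 0.37 (SD, n = 3), a 3.99-fold difference. GP002D12, from the same row, came second with 2.04, 2.27 and 1.54 and a mean of 1.95 ± 0.37 (SD, n = 3). Both had their lowest ratio on replicate 3. Wells 11 and 2 of the same row held the clones next in rank, with means of 1.89 and 1.88, and the clone after them, from another plate, had 1.81.

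**Figure D1:**
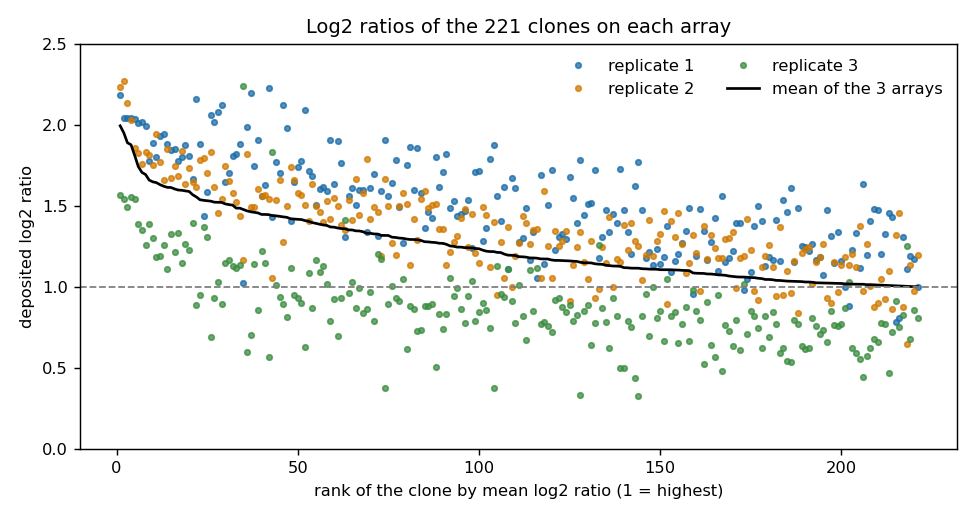
Deposited log2 ratio (y axis) of each of the 221 clones on replicates 1, 2 and 3 (points) and their mean (line), ordered by mean (x axis); the dashed line marks the limit of 1. Replicate 3 lies below the other arrays for 208 of the clones.

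In limma's test of each mean against 0, adjusted over all features by Benjamini-Hochberg, all 221 clones passed an adjusted p of 0.05, where 12.5% of the features were called on the positive side. The clones were chosen by the same ratios, so this count only describes them. Their adjusted p (limma) had a median of 0.00109 and reached at most 0.0131. At an adjusted p under 0.01, 217 of the 221 were called, where 6.56% of all features were called on the positive side. The 4 others had a median SD over the arrays of 0.74 on the log2 scale, against 0.34 for the 217.

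The arrays differed in how large they showed these ratios. The median log2 ratio of the 221 clones was 1.48 in replicate 1, 1.33 in replicate 2 and 0.85 in replicate 3, which are 2.80-fold, 2.51-fold and 1.81-fold differences between the channels. Replicate 3 gave the lowest of the 3 values for 208 clones (94.1%), whereas it gave the lowest value for 36.1% of all features. By array, only 38.3% to 40.9% of all features lay above 0, so these shares do not compare like ratios. In 145 clones the order was replicate 1, then 2, then 3, and in 63 it was replicate 2, then 1, then 3. The median difference between replicates 1 and 3 within a clone was 0.60 on the log2 scale, against 0.15 between replicates 1 and 2.

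Replicate 3 had the lowest median at every size of ratio. Among clones with a mean between 1 and 1.2, the medians were 1.30, 1.19 and 0.77 in replicates 1, 2 and 3. Among those between 1.6 and 1.8 they were 1.89, 1.77 and 1.26. The 5 clones above 1.8 had medians of 2.04, 2.14 and 1.54, so that the median of replicate 2 was above that of replicate 1.

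As deposited, the limit of 1 was not met on every array by most of the clones. On all 3 arrays, 54 clones (24.4%) were at or above 1, 143 (64.7%) were so on 2 arrays and 24 (10.9%) on a single array. With quantile normalization, the clones taken by the rule numbered 212 and 113 of them were at or above 1 on all arrays. Without replicate 3, 278 features were at or above 1 on both other arrays. By array, 215 of the clones reached 1 in replicate 1, 197 in replicate 2 and 60 in replicate 3. Over all features, the share at or above 1 was 5.59%, 3.68% and 0.811% on the same arrays, and the 99th percentile was 1.56, 1.4002 and 0.95. The positive end of replicate 3 was thus lower over all features, the chosen clones included.

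Ranks take out that difference in scale. On their own scale the clones stood at a median percentile of 98.8 in replicates 1 and 2 and of 98.1 in replicate 3. Of the 221 highest features of each array, 163 were among the clones in replicate 1, 179 in replicate 2 and 134 in replicate 3. In all 3 top lists stood 92 clones, and 2 clones stood in none of them. With quantile normalization, which by construction gives the arrays the same distribution, the medians of the clones were 1.24, 1.25 and 1.13, and replicate 3 was the lowest for 94 of them.

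The SD of a clone over the 3 arrays, on the log2 scale, was 0.35 at the median, with quartiles of 0.27 and 0.43. After the median of the clones on each array was subtracted from their values, the median SD was 0.17, so an offset common to the clones made up part of the spread. Within the set, the order of the clones was only partly shared between arrays. As a description across the 221 clones, which are not independent of each other, Pearson's r was 0.49 for replicates 1 and 2, 0.42 for replicates 2 and 3, and 0.18 for replicates 1 and 3. Spearman's rho was 0.46, 0.40 and 0.20 for the same pairs. The choice by the mean narrows the range of the values and lowers such correlations.

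A handful of clones went against the common order. These were singled out after their values were seen. Replicate 3 was the highest array for 5 clones. The clone of plate 139, well H3, had 1.02, 1.17 and 2.24 in replicates 1, 2 and 3, and its value in replicate 3 was the highest of all 9368 features on that array. The most even clone, of plate 056, well B6, had 1.31, 1.35 and 1.42, an SD of 0.05. At the other end, the clone of plate 129, well H5, had 2.23, 1.54 and 0.56, an SD of 0.84. Its value in replicate 1 was the highest of that array, yet in replicate 3 it lay below the median of the chosen clones.

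Because every array took part in the choice, the ratios were also read on an array that was not used. Features were chosen by the same rule on 2 arrays, with a mean at or above 1 and both values above 0, and their values on the array left over were taken. Choosing on replicates 2 and 3 gave 150 features. On replicate 1 their median was 1.56, 149 of them (99.3%) lay above 0 and 140 (93.3%) at or above 1. Among all features, 38.7% lay above 0 and 5.59% at or above 1 on that array.

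The other choices gave the same sign on the array not used. Choosing on replicates 1 and 3 gave 200 features, with a median of 1.29 on replicate 2, where all 200 were above 0 and 154 (77.0%) at or above 1. Choosing on replicates 1 and 2 gave 435 features, with a median of 0.66 on replicate 3. Of these, 434 (99.8%) lay above 0, but 59 (13.6%) were at or above 1, against 40.9% and 0.811% of all features. The positive sign was thus seen again on each array not used in all but 2 cases. The choices overlapped, with 126 features in all 3, so many features are counted more than once among these cases. The arrays may be technical repeats, so this was no test on separate plants. The share that again reached 2-fold, as deposited, was lowest in replicate 3. After quantile normalization, the shares at or above 1 on the array not used were 67.6% in replicate 1, 72.6% in replicate 2 and 57.6% in replicate 3. A single array was read each time, so no test was made. The exceptions in sign were a feature with -0.38 on replicate 1, which had 0.88 and 2.17 on replicates 2 and 3, and a feature with -0.06 on replicate 3, which had 1.25 and 0.88 on replicates 1 and 2. Neither belongs to the 221 clones, since their means over all arrays were 0.89 and 0.69.

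**Figure D2:**
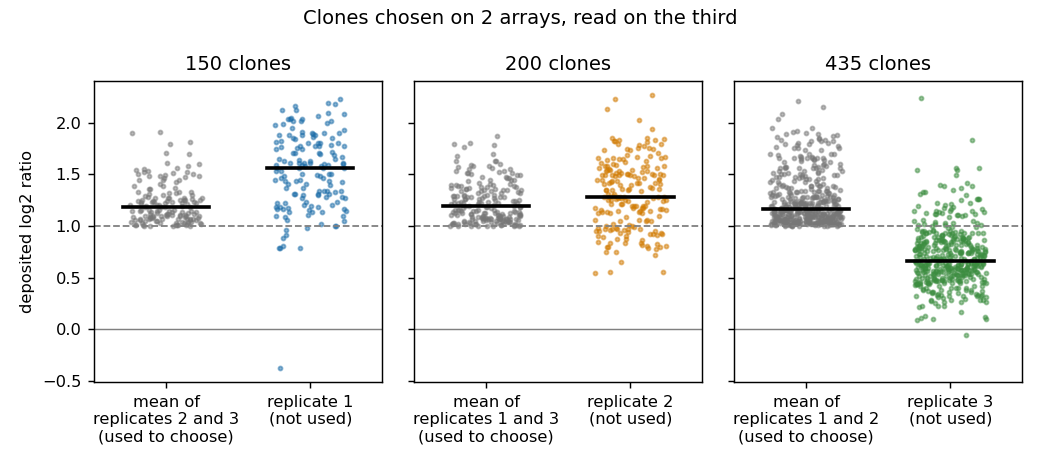
Log2 ratios (y axis) of features chosen on 2 arrays: the mean on those arrays (grey) and the value on the array not used (colour), with medians as bars, for 150, 200 and 435 features from left to right. The medians on the array not used are 1.56, 1.29 and 0.66.

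The same arrays were set against features in the mirrored range on the negative side. These had means between -1.99 and -1.001 and all values below 0, and there were 574 of them. They are a part of the 2362 features with a mean at or below -1 and all values below 0, most of which lay beyond this range. Over the 574, the median of the means was -1.40, against 1.19 for the positive clones. Within this range the negative ratios were thus larger in size. Their medians were -1.502, -1.37 and -1.32 in replicates 1, 2 and 3, so replicate 3 was again the nearest to 0. Replicate 3 gave the value nearest to 0 for 44.8% of them, against 94.1% of the positive clones. Within a feature, replicate 1 minus replicate 3 was -0.18 in log2 units at the median, against 0.60 for the positive clones. Their median SD was 0.28, against 0.35. With 1 array behind each value, these differences could not be tested.

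Plate and well played no part in the choice of the clones. The 221 clones came from 86 of the 114 plates. On 63 plates there were 1 to 3 of them, and on 28 plates there were 0. The 23 plates with 4 or more held 116 clones, and 4 plates held 7 clones each. The highest share was on plate 001, with 6 of 72 features (8.33%).

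The share differed along the series of plates. The limits of the sets of plates below were drawn after the data were seen, so their shares are descriptions. Plates 000 to 006 held 22 of the clones among 401 features (5.49%), and plates 007 to 058 held 33 among 1407 (2.35%). On plates 059 to 088 there were 96 among 2657 features (3.61%), on plates 089 to 118 there were 52 among 2633 (1.97%), and on plates 119 to 147 there were 18 among 2270 (0.793%). Plates 059 to 088 thus gave 43.4% of the clones from 28.4% of the features. The clones had a median mean of 1.32 on plates 000 to 006, 1.15 on plates 059 to 088 and 1.24 on plates 119 to 147. Because the rule asked for a mean of at least 1, these medians do not describe the ratios of all features there.

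The share of positive clones was set beside the share of features at or below -1 on the same plate. Across the 114 plates, Pearson's r between these shares was 0.26 and Spearman's rho 0.19, as a description over plates that share the same arrays. Plates 000 to 006 had the highest share of positive clones among these sets and a low share at or below -1, 11.7%. Plates 119 to 147 were low in both, with 6.30% at or below -1. On plates 089 to 118 the share at or below -1 was 34.1%. Within a plate, rows D and H had the highest shares of positive clones, 3.27% and 2.98%, and row E the lowest, 1.42%. Outer wells had 2.56% and inner wells 2.24%.

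**Figure D3:**
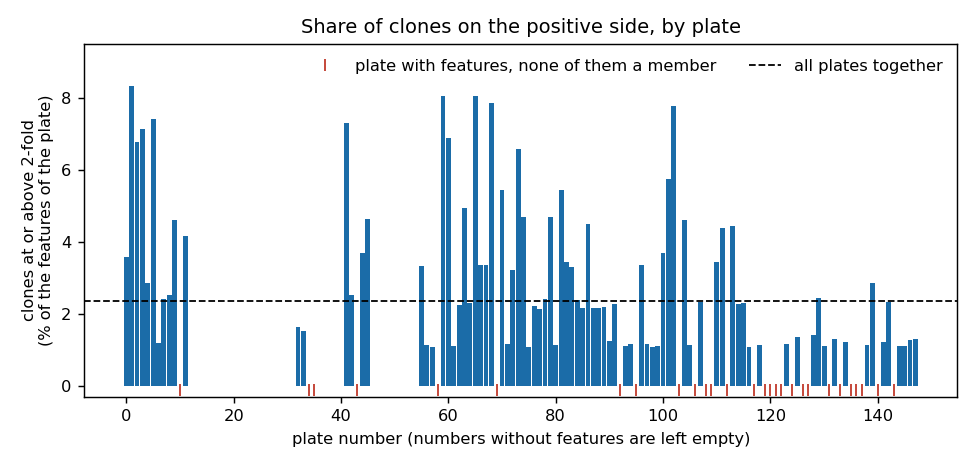
Share of the features of each plate (y axis, percent) that belong to the 221 clones, along the plate number (x axis); ticks below 0 mark the 28 plates with none, and the dashed line is the share over all plates, 2.36%. Plate 001 is the highest at 8.33%, and plates 119 to 147 lie low.

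Some of the clones sat side by side. There were 15 pairs of clones in next wells of a row, which involved 29 clones, and 5 pairs in next wells of a column. The count of row pairs moved with the number of clones taken, to 33 without replicate 3, 10 without replicate 1 and 37 with median centring. Of the row pairs, 9 were on plates 000 to 006 and involved 17 of the 22 clones there. These 9 all lay on plates 001, 002, 003 and 005. The 9 pairs made up 3.09% of the 291 pairs of next wells on plates 000 to 006, against 6 of 7274 (0.0825%) on the plates from 007 on. Part of that contrast follows from the share of features that were clones, 5.49% against 2.22%.

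The pairs on the first plates had like ratios. By the rule both wells of any pair had a mean of at least 1, so part of the likeness follows from the choice. Next wells outside the set were not compared. In those 9 pairs the root mean square difference over the arrays, in log2 units, had a median of 0.08 and was at most 0.18, with a largest difference on a single array of 0.31. In the 6 others the median was 0.39 and the range 0.05 to 0.64. In row D of plate 002, well 2 had 2.04, 2.03 and 1.56 beside 2.19, 2.23 and 1.57 in well 3. Well 11 had 2.04, 2.14 and 1.49 beside 2.04, 2.27 and 1.54 in well 12. The 7 other features of that row had means between -2.19 and 0.33, all below the limit of 1. Wells 5, 8 and 10 among them had means above 0, of 0.03, 0.21 and 0.33. An effect of the row was not tested.

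The only run of more than 2 wells was in row C of plate 003. Well 8 had 1.599, 1.58 and 0.84 in replicates 1, 2 and 3. Well 9 had 1.91, 1.61 and 0.86. Well 10 had 1.78, 1.57 and 0.90. Well 11, outside the set, had 0.90, 0.98 and 0.55, and wells 7 and 12 had means of -0.16 and -0.29.

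Whether next wells hold the same cDNA was not tested, and the 221 clones are not a count of transcripts. Counting each run of next wells once left 206. On plates 000 to 006 the same count was 13 of 401 features (3.24%) in place of 5.49%, against 2.22% on the plates from 007 on with every clone counted. The 401 features were all kept while runs of clones were counted once, so 3.24% and 2.22% are not counted alike.

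**Figure D4:**
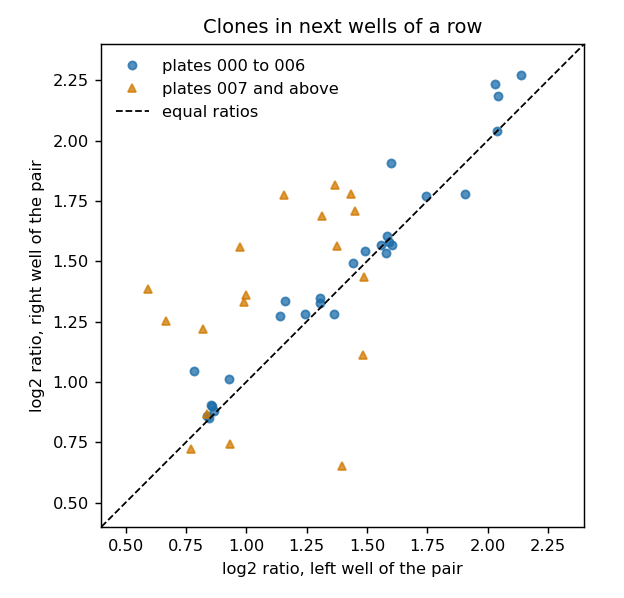
Log2 ratios of the 15 pairs of clones in next wells of a row, with the left well on the x axis and the right well on the y axis and a point for each pair and array; the dashed line marks equal ratios. Pairs on plates 000 to 006 (circles) lie near the line, while most of those on later plates (triangles) lie farther from it.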

How the data were processed

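The authors deposited a log2 ratio for every feature on each array, after preprocessing and normalization that the labels credit to an earlier publication. The sources used here do not give its steps, the dyes, any dye swap, the centring or the numerator. The log base was read from the values: multiplied by the natural logarithm of 2, 98.8% to 98.9% of each array's values lie on a grid of 4 decimals (tolerance 1.2e-06). The arrays' medians were -0.19, -0.16 and -0.11. Spot intensities were not used, and precision is limited by the number of arrays, 3.

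Clones were chosen on the plain mean of the deposited ratios, and all features were fitted with limma 3.58.1 in R 4.3.3 (intercept, eBayes), two-sided. The code was also run on simulated independent values. These had no offset common to the features of an array, so that run does not bear on the p-values given here. Counts and medians were computed with Python 3.11.15 and pandas 2.3.3. The members, lists and plate sets were chosen with earlier results of these data known. Clones named by a rule are the 2 with the highest mean, runs of 3 or more next wells, and those beside the limit. A list of 5 floral organ identity genes could not be matched.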

Additional observations from a re-analysis of the deposited data

How the results depend on the processing

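With each array centred on its median, which raises all features by 0.15 on average, the rule took 442 clones, all 442 called by limma, with 95 at or above 1 on all arrays and 37 pairs of next wells; all 221 clones were among them. Centring on the mode took 221 clones, all shared. Quantile normalization took 212, of which 209 were shared, with 113 at or above 1 on all arrays, and 67.6% and 57.6% of the features chosen on the other arrays then reached 1 in replicates 1 and 3. A mean of at least 1.5 left 32 clones (32 called, median 1.602) from 24 plates, 27 of them at or above 1 on all arrays, with 2 pairs. Asking for 1 on every array left 54 clones, all 54 called, from 41 plates, with 2 pairs. Asking for 1 on both choosing arrays moved the shares at or above 1 on the third to 93.1% in replicate 2 and 19.4% in replicate 3. Leaving out 1 array gave 150 to 435 clones and 150 to 435 calls, 57 to 278 at or above 1 on the arrays left, and 10 to 33 pairs; the highest values were those without replicate 3, where 435 clones were taken and 220 of the 221 stayed. Pairs down a column numbered 5, and without plates 000 to 006, a setting chosen after seeing the data, 6 row pairs were left. Of 81 values under alternatives, 56 stayed within 1.5 times (counts), within the SD of the array medians (medians) or within the 95% binomial interval (shares) of the reported value. These limits are conventions and not tests. The SD of the array medians, 0.33, includes the gap of replicate 3, so its move from 0.85 to 1.13 with quantile normalization counted as staying. The binomial interval treats clones of 1 array as independent, which they are not. Calls by limma equalled the number of clones in most settings, so the 81 values overlap. Each ratio already pairs both RNAs on an array; beyond that, no paired analysis was possible because nothing further pairs the arrays as a block. What signal over background would limit was not examined.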
